A study of Mus musculus with 18 samples.

Results

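The enzymes that write, copy and oxidize DNA methylation were followed through neutrophil differentiation: the maintenance methyltransferase gene Dnmt1 and its partner Uhrf1, the de novo methyltransferase genes Dnmt3a and Dnmt3b, and the dioxygenase genes Tet1, Tet2 and Tet3. They were taken by symbol from a table of 34896 genes, and all 7 were found and passed the filter on low values. RNA-seq covered granulocyte-monocyte progenitors (GMPs), neutrophil precursors (preNeu) and mature neutrophils (matNeu), with 3 libraries per cell type. The mice were C57BL/6, wild type (WT) and 6 to 12 weeks of age, and the cells were sorted from bone marrow. CHD4 ChIP-seq was done in WT GMPs and in GMPs of Gfi1-/- mice, and H3K4me2 ChIP-seq in WT GMP, preNeu and matNeu cells, with 1 library each. CHD4 is the ATPase of NuRD, a complex that remodels nucleosomes and removes histone acetylation, GFI1 is a repressor of transcription needed for neutrophil formation, and H3K4me2 is a histone mark of promoters and enhancers. No RNA-seq of Gfi1-/- cells was analysed here, so the loss of Gfi1 was not checked in expression.

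DNA methylation is copied after each round of replication. UHRF1 binds hemimethylated CG sites behind the fork and brings in DNMT1, which methylates the new strand. DNMT3A and DNMT3B place methyl groups on sites that had none. TET1, TET2 and TET3 oxidize 5-methylcytosine, which opens a path to its removal by base excision or by dilution in dividing cells. In the blood system DNMT3A and TET2 are known above all because their genes are often mutated in clonal hematopoiesis and myeloid leukemia.

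Titles and cell type labels differed for 13 of the 18 samples, among them all 9 RNA libraries, and titles were followed. Marker genes were read in the RNA libraries only, so the cell types of the peak lists rest on their titles. The summed markers of each cell type were highest under its title. Mmp8, of the preNeu list, alone had its highest mean elsewhere, with 7.91, 205 and 6602 TPM in GMP, preNeu and matNeu. The 8 GMP markers summed to 45829 to 47647 TPM in the GMP libraries and to 17.04 to 40.8 TPM in matNeu, the 8 preNeu markers to 149379 to 175655 TPM in preNeu and the 8 matNeu markers to 34254 to 38491 TPM in matNeu. TPM, the unit of expression here, is scaled by transcript length and to the same sum in every library and keeps no read depth. In bulk samples, fewer cells of a type and less RNA per cell cannot be told apart. Nothing in the sources used here says whether the 3 libraries came from separate mice, so p-values measure the spread between libraries, which may be technical.

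The sequences around the start sites of the maintenance pair are shown because Dnmt1 and Uhrf1 had like courses over the 3 cell types and a motif search found E2F-type letters there and at none of the other 5 genes. Among 12 RefSeq promoter windows of the 7 genes (250 bases before to 50 after each start, GRCm38.p6), E2F-type letters stood in 2, the window of the innermost Dnmt1 start and that of the inner Uhrf1 start. The letters searched on both strands were TTTCCCGC, TTTCGCGC, TTTGCCGC and TTTGGCGC, and 2.26% of 32851 promoter windows held at least 1 of them. Each of these words contains CG, and the 2 windows held 33 CG each, beside a median of 7 over all windows. The share among windows of like CG content was not computed. Both windows also held CCAAT, which 37.4% of all windows did. Capitals mark these letters on either strand. The Dnmt1 stretch lies on the minus strand at chr9:20952835-20952864, in an untranslated exon, and the Uhrf1 stretch on the plus strand at chr17:56304063-56304312, just before the inner start.
Dnmt1: ccctcCCAATTGGtttccgcgcGCGCGAAA
Uhrf1: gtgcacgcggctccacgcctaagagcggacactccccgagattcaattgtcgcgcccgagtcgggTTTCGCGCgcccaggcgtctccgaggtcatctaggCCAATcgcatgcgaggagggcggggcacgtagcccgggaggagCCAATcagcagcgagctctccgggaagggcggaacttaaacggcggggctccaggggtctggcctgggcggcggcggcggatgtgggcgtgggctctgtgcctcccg
These motifs were chosen after the sequences had been seen. A match describes the letters only and is no measured binding.

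Dnmt1 and Uhrf1 were the most abundant of the 7 transcripts in GMPs and in preNeu, and both were far lower in matNeu. Dnmt1 stood at 224, 226.9 and 212 TPM in the GMP libraries, at 135, 142 and 151 TPM in preNeu and at 8.50, 6.40 and 6.09 TPM in matNeu. Uhrf1 stood at 236, 250.5 and 228 TPM in GMPs, at 162, 169.98 and 194 TPM in preNeu and at 2.51, 1.70 and 2.74 TPM in matNeu. For either gene the 3 cell types did not overlap. The log2 difference between matNeu and GMPs, on the log2(TPM + 1) scale, was -4.81 ± 0.144 (SE) for Dnmt1 (limma, adjusted p = 6.2e-10) and -6.18 ± 0.157 for Uhrf1 (limma, adjusted p = 2.5e-10). Most of it lay between preNeu and matNeu, with -4.18 for Dnmt1 and -5.74 for Uhrf1.

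The earlier step, from GMP to preNeu, was small for the maintenance pair. Dnmt1 differed by -0.63 (95% interval -0.95 to -0.31) and Uhrf1 by -0.44 (95% interval -0.79 to -0.09). The median over all 13061 genes tested differed by -0.52 in this comparison, so that relative to the median Dnmt1 was at -0.11 and Uhrf1 at 0.08. With median-of-ratios scaling of the TPM neither passed (limma, adjusted p = 0.25 for Dnmt1 and 0.94 for Uhrf1). The plot of TPM by library shows the small first step and the later drop.

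**Figure D1:**
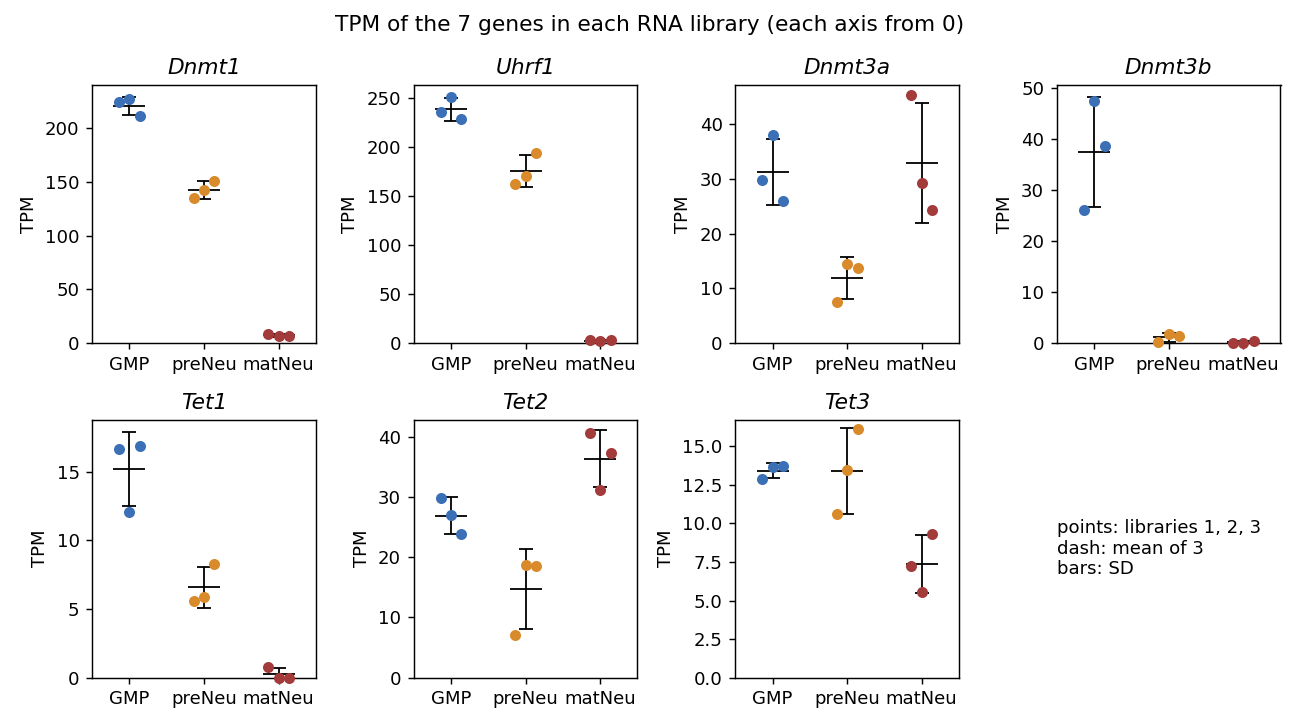
TPM of each gene in the 9 RNA libraries, 3 each of GMP, preNeu and matNeu, with the mean (dash) and SD (bars); each panel has its own linear axis from 0. Dnmt1 and Uhrf1 stand at 135 TPM or more in GMP and preNeu and at 8.50 TPM or less in matNeu, Dnmt3b is below 2 TPM already in preNeu, and Dnmt3a and Tet2 are lowest in preNeu.

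Genes of DNA replication and mitosis were measured in the same libraries. The 12 genes of the S phase and mitosis list (Mcm2 to Mcm7, Mki67, Top2a and others) summed to 4218 to 4680 TPM in GMPs, 4018 to 4264 TPM in preNeu and 35.0 to 48.6 TPM in matNeu. All 12 passed the test with lower values in matNeu than in GMPs, beside 54.1% lower among all genes tested. Their median log2 difference was -6.73, beside -0.92 over all genes. Mcm3, a subunit of the replicative helicase, differed by -8.61 ± 0.263 (SE) and Cdk1, the kinase of mitotic entry, by -7.95 ± 0.233. Against GMPs, preNeu had 4 of the 12 higher and 6 lower, beside 14.7% higher and 44.3% lower among all genes tested. Basophil and mast cell markers were also low in matNeu, with sums of 453 to 592 TPM in GMPs, 292 to 481 TPM in preNeu and 2.15 to 14.9 TPM in matNeu. The part of proliferation or of other cells in the levels of Dnmt1 and Uhrf1 was not tested.

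The 3 genes whose pattern over the 9 libraries was most like that of Uhrf1 were Tubb5 (a tubulin, Pearson r = 0.999), Rangap1 (the Ran GTPase activating protein, r = 0.999) and Ndc1 (a nucleoporin, r = 0.999). Those most like Dnmt1 were Cab39l (r = 0.999), Tmem209 (r = 0.999) and Atad5, which unloads the PCNA clamp (r = 0.999). Dnmt1 and Uhrf1 had r = 0.997 with each other. The 9 points are 3 libraries of each of 3 cell types, so that r mostly describes the 3 means.

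Dnmt3b was under 2 TPM in every preNeu library already, below the other 6 genes. It stood at 26.03, 47.5 and 38.7 TPM in GMPs, at 0.155, 1.82 and 1.36 TPM in preNeu and at 0.0752, 0 and 0.420 TPM in matNeu. All GMP libraries lay far above all others, while preNeu and matNeu overlapped. The log2 difference from GMP to preNeu was -4.24 ± 0.374 (SE; limma, adjusted p = 6.3e-06). Between preNeu and matNeu it was -0.78 (95% interval -1.61 to 0.05; limma, adjusted p = 0.094), and without preNeu replicate 1 it was -1.16 (limma, adjusted p = 0.013). Dnmt3c, a rodent paralog of Dnmt3b beside it on the chromosome, was listed at 0 in all 9 libraries, so that no TPM was assigned to the near copy. The genes most like Dnmt3b were Tmem57 (r = 0.998), Ece1 (endothelin converting enzyme, r = 0.995) and Klhdc3 (r = 0.995).

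Dnmt3a followed another course. It stood at 29.8, 38.0 and 26.02 TPM in GMPs, at 7.40, 14.5 and 13.7 TPM in preNeu and at 45.3, 29.3 and 24.2 TPM in matNeu. The preNeu libraries lay below all others, and GMP and matNeu overlapped. The log2 difference was -1.36 ± 0.296 (SE) from GMP to preNeu (limma, adjusted p = 0.0024) and 1.40 ± 0.296 from preNeu to matNeu (limma, adjusted p = 0.0017). Between matNeu and GMPs it was 0.04 (95% interval -0.61 to 0.70), which did not pass, and with median-of-ratios scaling it was 0.85 and passed (limma, adjusted p = 0.019). The transcript type given for Dnmt3a in the table is retained intron, while that of the other 6 genes is protein coding, and whether its TPM covers the long form and the short form from the internal start is not given in the sources used here. The most alike genes were Dnajb9, a chaperone of the endoplasmic reticulum (r = 0.979), Paf1 of the PAF1 elongation complex (r = 0.959) and Arhgap39 (r = 0.956).

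Among the TET genes, Tet1 was lost step by step. It stood at 16.6, 12.1 and 16.8 TPM in GMPs and at 5.57, 5.83 and 8.30 TPM in preNeu. In matNeu it stood at 0.743 TPM in replicate 1 and was listed at 0 in the other 2 libraries. The 3 cell types did not overlap. The log2 difference from GMPs was -1.10 ± 0.303 (SE) in preNeu (limma, adjusted p = 0.0095) and -3.73 ± 0.303 in matNeu (limma, adjusted p = 7.0e-07). Relative to the median of all genes it was -0.58 in preNeu, and with median-of-ratios scaling the preNeu difference of -0.70 did not pass (limma, adjusted p = 0.094). Srp9 (of the signal recognition particle, r = 0.994), Def8 (r = 0.994) and Plrg1 (a spliceosome component, r = 0.994) were most alike.

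Tet2 was lowest in preNeu and highest in matNeu. It stood at 29.9, 27.1 and 23.8 TPM in GMPs, at 7.12, 18.6 and 18.6 TPM in preNeu and at 40.6, 31.2 and 37.3 TPM in matNeu. The 3 cell types did not overlap, and preNeu replicate 1 lay well below the other preNeu libraries, as it did for Dnmt3a and Dnmt3b. From preNeu to matNeu the log2 difference was 1.35 ± 0.313 (SE; limma, adjusted p = 0.0031), and 0.92 without preNeu replicate 1. From GMP to preNeu it was -0.93 ± 0.313 (limma, adjusted p = 0.025), and -0.52 with median-of-ratios scaling, which did not pass (limma, adjusted p = 0.16). Between matNeu and GMPs it was 0.42 (95% interval -0.27 to 1.11; limma, adjusted p = 0.24), or 1.34 above the median of all genes, and with median-of-ratios scaling it was 1.23 and passed (limma, adjusted p = 0.0028). Slc9a9 (a sodium and proton exchanger, r = 0.973), Nelfb (a subunit of the negative elongation factor, r = 0.964) and Ttc19 (r = 0.954) were most alike.

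Tet3 differed least of the 7 between preNeu and GMPs and was lower in matNeu. It stood at 12.9, 13.7 and 13.7 TPM in GMPs, at 10.6, 13.5 and 16.2 TPM in preNeu and at 7.25, 5.53 and 9.30 TPM in matNeu. GMP and preNeu overlapped, and matNeu lay below both. The difference between preNeu and GMPs was -0.02 (95% interval -0.55 to 0.51; limma, adjusted p = 0.96). Between matNeu and GMPs it was -0.81 ± 0.240 (SE; limma, adjusted p = 0.0096), close to the median of all genes of -0.92, and with median-of-ratios scaling it was -0.06 and did not pass (limma, adjusted p = 0.82). Trappc11 (a vesicle tethering subunit, r = 0.989), Rbsn (rabenosyn, r = 0.984) and Numa1 (a spindle pole protein, r = 0.982) were most alike.

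Markers of monocytes and B cells were measured beside Dnmt3a and Tet2. The 5 monocyte markers summed to 1296 to 1596 TPM in GMPs with 5 of 5 at 1 TPM or more, to 26.8 to 52.4 TPM in preNeu with 5 of 5 and to 258 to 361 TPM in matNeu with 3 of 5. Csf1r, the receptor of macrophage colony-stimulating factor, alone was lowest in preNeu, with means of 204, 13.8 and 304 TPM, and it carried the sum in matNeu. The other 4 (Ccr2, Cx3cr1, Ly86 and F13a1) had their lowest means in matNeu, at 0.573, 0.853, 3.29 and 3.06 TPM. Of the B cell genes, Cd79b had means of 86.4, 21.1 and 35.4 TPM in GMP, preNeu and matNeu and was lowest in preNeu. Cd79a, its partner in the B cell receptor, had means of 0.270, 6.98 and 22.7 TPM, and Ebf1, a transcription factor gene, was listed at 0 in all GMP libraries and had means of 1.26 and 3.33 TPM in preNeu and matNeu. Vpreb1, of the surrogate light chain, had means of 0.169, 1.38 and 0.154 TPM. The part of other cells in these results was not tested.

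Of the 7 genes, 0 were higher and 6 were lower in preNeu than in GMPs, beside 14.7% higher and 44.3% lower among all 13061 genes tested (limma, adjusted p under 0.05). In matNeu against GMPs 0 were higher and 5 lower, beside 22.8% and 54.1%. In matNeu against preNeu 2 were higher, Dnmt3a and Tet2, and 4 lower, beside 22.9% and 39.8%. The median log2 difference of the 7 genes was -0.93, -3.73 and -0.79 in these comparisons, beside -0.52, -0.92 and -0.32 over all genes. Median-of-ratios scaling left 2 lower in preNeu, Dnmt3a and Dnmt3b, and gave 2 higher and 4 lower in matNeu against GMPs. It moved the median of all genes to -0.14 and -0.21 in these comparisons. The share of all called genes that were higher went from 25.0% to 41.7% in preNeu and from 29.6% to 45.1% in matNeu. The 3 comparisons share libraries and are not independent.

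**Figure D2:**
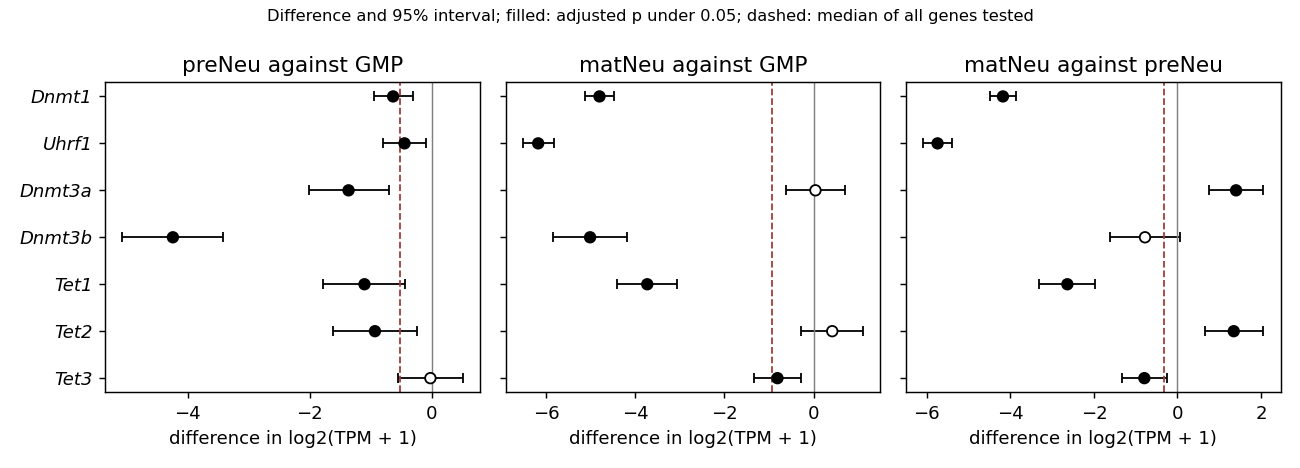
Difference in log2(TPM + 1) of each gene in the 3 comparisons with its 95% interval from limma; filled points have an adjusted p under 0.05, the grey line is 0 and the dashed line the median over all 13061 genes tested. Dnmt1 and Uhrf1 lie near the dashed line in preNeu against GMPs and far below it in both matNeu comparisons, whereas Dnmt3a and Tet2 lie above it in matNeu.

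These courses changed the order of the genes within each cell type. In GMPs Uhrf1 had 238 ± 11.5 TPM and Dnmt1 221 ± 8.19 TPM (mean ± SD, n = 3), followed by Dnmt3b with 37.4 ± 10.8 TPM, Dnmt3a with 31.3 ± 6.12 TPM and Tet2 with 26.9 ± 3.04 TPM, neighbors that overlapped. Tet1 with 15.2 ± 2.69 TPM and Tet3 with 13.4 ± 0.470 TPM came last and overlapped as well. In preNeu Dnmt3b was last with 1.11 ± 0.859 TPM. In matNeu Tet2 led with 36.4 ± 4.77 TPM and Dnmt3a followed with 32.9 ± 10.99 TPM, which overlapped, and Tet3 with 7.36 ± 1.89 TPM and Dnmt1 with 6.998 ± 1.31 TPM also overlapped. Uhrf1 with 2.32 ± 0.545 TPM, Tet1 with 0.248 ± 0.429 TPM and Dnmt3b with 0.165 ± 0.224 TPM were lowest.

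Shares within a family do not depend on the scaling of a library. Dnmt1 made up 80.1%, 72.6% and 76.6% of the summed TPM of Dnmt1, Dnmt3a and Dnmt3b in GMPs, 94.7%, 89.7% and 90.9% in preNeu and 15.8%, 17.9% and 19.8% in matNeu. The 3 cell types did not overlap, and matNeu stood far below the rest (exact permutation test over 9 libraries, p = 0.0036, adjusted over 4 shares 0.0048). Of the summed TPM of the de novo genes, Dnmt3a held 53.3%, 44.5% and 40.2% in GMPs, 97.9%, 88.8% and 91.0% in preNeu and 99.8%, 100% and 98.3% in matNeu (exact permutation p = 0.0036, adjusted 0.0048). The smallest p that this design can give is 0.0036.

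Of the summed TET TPM, Tet2 held 50.3%, 51.3% and 43.8% in GMPs, 30.6%, 49.1% and 43.2% in preNeu and 83.6%, 85.0% and 80.1% in matNeu. GMP and preNeu overlapped, and matNeu was higher in all 3 libraries (exact permutation test, p = 0.0071, adjusted 0.0071). The Tet3 share was 24.3% ± 2.26 in GMPs, 39.5% ± 5.27 in preNeu and 16.6% ± 2.86 in matNeu (SD, n = 3), without overlap (exact permutation p = 0.0036, adjusted 0.0048). In preNeu Tet3 held more than Tet2 in replicate 1 and less in the other 2 libraries, and in matNeu Tet2 held most of the sum.

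**Figure D3:**
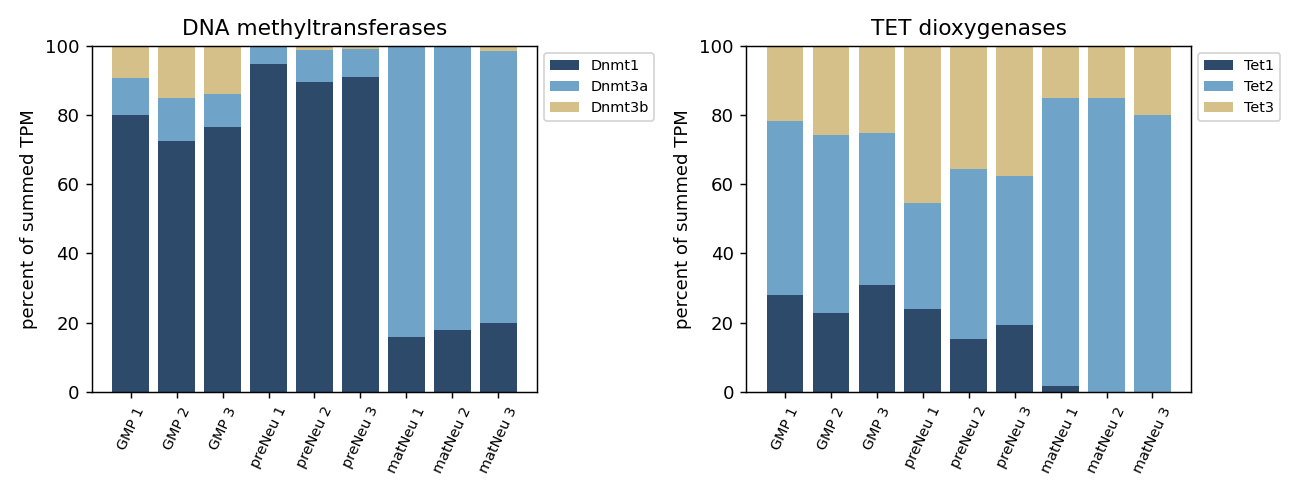
Percent of summed TPM held by Dnmt1, Dnmt3a and Dnmt3b (left) and by Tet1, Tet2 and Tet3 (right) in each of the 9 RNA libraries; each bar adds to 100. Dnmt1 holds most of the left bars in GMP and preNeu and 15.8% to 19.8% in matNeu, and Tet2 holds 80.1% to 85.0% of the right bars in matNeu.

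Partner genes of the same pathway were counted from lists of 10 in matNeu against GMPs, where 22.8% of all genes tested were higher and 54.1% lower, with a median log2 difference of -0.92. Of 8 tested partners of the methyltransferases, 0 were higher and 6 lower. Hells, the remodeler that DNA methylation needs in closed chromatin, differed by -5.78 ± 0.178 (SE) and Cdca7, its activator, by -4.18 ± 0.118. Pcna, the replication clamp that recruits DNMT1, had a mean of 476 TPM in GMPs, 307 TPM in preNeu and 29.5 TPM in matNeu. Uhrf2, the paralog of Uhrf1, had 34.8 ± 6.36 TPM in GMPs, 25.7 ± 1.58 TPM in preNeu and 8.72 ± 1.35 TPM in matNeu (SD, n = 3). Usp7, a deubiquitinase that stabilizes DNMT1 and UHRF1, had 57.4 ± 5.02 TPM, 50.9 ± 11.8 TPM and 52.3 ± 8.77 TPM, which overlapped. The list's median log2 difference was -2.09, beside -0.92 over all genes.

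Genes of base excision at large, a repair path that can follow TET oxidation, were 0 higher and 9 lower of 10, with a median of -1.94 beside -0.92 over all genes. Apex1, the abasic site endonuclease, differed by -7.41 ± 0.199 (SE) and Ung, a uracil glycosylase, by -5.65 ± 0.330. Tdg, the glycosylase that removes oxidized methylcytosine, had 126 ± 10.2 TPM in GMPs, 71.8 ± 11.5 TPM in preNeu and 35.5 ± 0.517 TPM in matNeu (SD, n = 3). Genes of the methyl donor cycle, which makes and recycles S-adenosylmethionine, were 0 higher and 8 lower of 10, beside 22.8% and 54.1% of all genes, with a median of -3.24. Ahcy, which removes the product inhibitor S-adenosylhomocysteine, differed by -6.87 ± 0.265 (SE) and Shmt2, a mitochondrial serine hydroxymethyltransferase, by -6.34 ± 0.188.

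Of 9 tested cofactors of the TET enzymes 3 were higher and 5 lower, near the 22.8% and 54.1% of all genes. Gadd45a, a stress gene linked to demethylation, differed by 5.10 ± 0.400 (SE) and Gadd45b by 2.02 ± 0.273. Ogt, the GlcNAc transferase that binds TET2 and TET3, had 135 ± 13.02 TPM in GMPs, 61.7 ± 10.6 TPM in preNeu and 453 ± 39.97 TPM in matNeu (SD, n = 3), the same order as Tet2. Idh2 and Idh3a, mitochondrial isocitrate dehydrogenases that make the TET cosubstrate 2-oxoglutarate, differed by -7.21 ± 0.178 and -6.89 ± 0.224. A list of readers of methylated CG and genes related to them had 2 higher and 5 lower of 9 tested, also near the shares of all genes. A place in this list does not mean that the product binds methylated CG. Mbd2 differed by 1.71 ± 0.163 and Mbd6 by 1.33 ± 0.252, while Mbd3 differed by -4.06 ± 0.380 and Mbd1 by -3.13 ± 0.159. MBD2 and MBD3 are alternative subunits of NuRD, and MBD3 binds methylated DNA weakly if at all.

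CHD4 peaks of WT GMPs lay at the TET genes and at Dnmt3a. A peak was counted when it overlapped the gene or 10 kb on either side (GENCODE M21, GRCm38). There were 17 such peaks, 11 at Tet2, 2 each at Tet1, Tet3 and Dnmt3a and 0 at Dnmt1, Uhrf1 and Dnmt3b, so that 4 of the 7 genes had at least 1, beside 32.4% of 21938 protein-coding genes. The windows differ in length, and the 4 genes with a peak had the longest, from 101 kb at Tet2 to 128 kb at Dnmt3a. Those without a peak had 40.2 kb at Uhrf1, 58.3 kb at Dnmt3b and 72.7 kb at Dnmt1. The share of 32.4% is over genes of all lengths. The part of length in this split was not tested. Tet2 (chr3:133463679-133545139, minus strand) had the most peaks. At least 11 peaks were found at 2.43% of protein-coding genes and at 4.83% of the 2735 that were 0.67 to 1.5 times as long as Tet2, whose median was 1.

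The Tet2 peaks gathered at the promoter. Of the 11, 7 had their summit within 6 kb of the RefSeq start and 4 of these lay upstream, in the span of the antisense gene Gm42567. The strongest, chr3:133545955-133547266, had a fold enrichment of 28.9 over its background and its summit 2.07 kb upstream, and 5.17% of all CHD4 peaks in WT GMPs had a higher fold. The next were chr3:133548384-133549756 with 15.6, chr3:133544953-133545544 with 14.9 and chr3:133549840-133550124 with 10.5. A peak of 8.91, chr3:133544169-133544557, covered the start itself. The other 6 ranged from 4.68 to 7.57, in introns or just downstream of the gene. At the other genes the folds ran from 5.27 to 11.5. Tet1 had its pair in an intron and an exon, 23.5 and 22.04 kb downstream of its RefSeq start. Dnmt3a had its pair in an intron, 35.9 and 35.5 kb upstream of the internal start. Tet3 had its pair in introns, 59.8 kb downstream and 9.37 kb upstream of its RefSeq start.

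**Figure D4:**
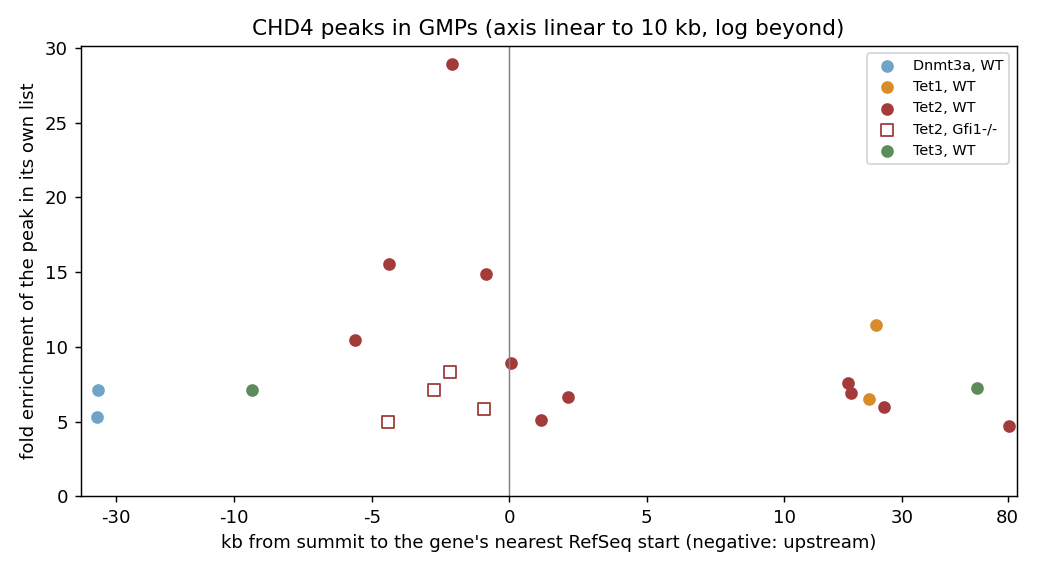
Fold enrichment of each CHD4 peak within 10 kb of Dnmt3a, Tet1, Tet2 or Tet3 against the distance of its summit from the nearest RefSeq start of that gene (axis linear to 10 kb, log beyond); filled circles are WT GMPs, open squares Gfi1-/- GMPs, 1 library each. The 3 strongest WT peaks lie 0.847 to 4.38 kb upstream of Tet2, and all 4 peaks of Gfi1-/- GMPs lie 0.906 to 4.404 kb upstream.

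Tet2 was the only member with CHD4 peaks in the absence of Gfi1, beside 10.2% of protein-coding genes with a peak there. The 4 peaks had folds of 5.83, 8.32, 7.09 and 4.99 in their own list and overlapped 3 of the 17 WT peaks, the 3 strongest. None of the other 14, at up to 11.5, was met by a peak. Over the genome 18.5% of 35790 WT peaks were met by a Gfi1-/- peak, 72.9% of those at or above the lowest fold of the 3 Tet2 peaks and 5.61% of those below. With 1 library a genotype there was no test, and the Gfi1-/- list was shorter, with 7316 peaks.

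The windows of 300 bases around CHD4 summits show which letters lay under these peaks. GFI1-type letters (AAATCA, both strands) were in 3 of the 17 windows, at Dnmt3a, Tet1 and Tet2, beside 18.9% of 35728 windows of all WT peaks. SPI1-type letters (GAGGAAGT, both strands) were in 2, beside 13.3%. The strongest Tet2 window held neither. All of its bases were soft-masked as repeat sequence in the reference, which holds for at least 90% of the bases in 2.18% of all windows, and the median window was masked over 9.33%. Reads from repeat copies elsewhere can be placed on such a stretch, and the mapping filter is not given in the sources used here. Capitals mark GFI1-type letters on either strand, and all 3 stretches are given on the plus strand, the strongest Tet2 window at chr3:133546306-133546605, the intron window of Tet2 with 2 matches at chr3:133542119-133542418 and the strongest Tet1 window at chr10:62863627-62863926.
Tet2 strongest: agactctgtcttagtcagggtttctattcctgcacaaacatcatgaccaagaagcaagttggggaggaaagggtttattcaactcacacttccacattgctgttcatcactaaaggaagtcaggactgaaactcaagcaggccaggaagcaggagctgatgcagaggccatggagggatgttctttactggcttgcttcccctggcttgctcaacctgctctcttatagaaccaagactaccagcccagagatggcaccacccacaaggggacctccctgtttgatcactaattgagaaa
Tet2 intron: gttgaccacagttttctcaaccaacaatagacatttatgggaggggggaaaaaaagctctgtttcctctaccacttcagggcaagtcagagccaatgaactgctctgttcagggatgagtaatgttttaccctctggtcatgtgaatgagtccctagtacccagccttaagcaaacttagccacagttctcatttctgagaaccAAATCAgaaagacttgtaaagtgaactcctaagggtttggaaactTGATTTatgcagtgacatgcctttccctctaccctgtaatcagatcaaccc
Tet1 strongest: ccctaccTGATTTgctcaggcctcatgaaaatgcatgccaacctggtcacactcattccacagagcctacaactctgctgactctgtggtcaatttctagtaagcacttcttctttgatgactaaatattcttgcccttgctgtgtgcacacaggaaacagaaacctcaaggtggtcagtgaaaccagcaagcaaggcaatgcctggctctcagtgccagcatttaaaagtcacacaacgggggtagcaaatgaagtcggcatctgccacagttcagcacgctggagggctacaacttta
GFI1-type letters were in 3 of the 14 windows whose peak was not met in Gfi1-/- GMPs, and the other 11 held none. The 3 windows whose peak was met held none either. The windows of the other 2 kept peaks were masked over 32% and 8.67%.

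H3K4me2 marked the start sites of all 7 genes in all 3 cell types, in GMPs beside 55.0%, in preNeu beside 60.0% and in matNeu beside 58.0% of 16522 protein-coding genes. With a −log10 q of at least 5, a start peak was left at 3 of the 7 genes in GMPs, Dnmt3a, Dnmt3b and Tet1. The share of all protein-coding genes at this cut was not computed, so whether these genes stand out there is not known. Within 10 kb of the genes there were 26 peaks in GMPs, 29 in preNeu and 31 in matNeu, which covered 46.1, 76.8 and 56.0 kb. The whole lists held 37643, 49578 and 44094 peaks, which covered 49.8, 97.9 and 80.4 Mb. The lists thus differ in extent at large, and these values are no gain particular to the 7 genes. The lists differ in strength, with a median fold of 2.89, 4.55 and 3.78, so that folds were read only by their place in their own list.

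The place of the start peak in its list was not tested against the RNA, and the values stand side by side. At Dnmt3b (chr2:153649450-153687730, plus strand) 6.27%, 0.133% and 1.25% of the list's peaks were higher than the start peak in GMP, preNeu and matNeu, where its mean TPM was 37.4, 1.11 and 0.165. At Uhrf1 (chr17:56303321-56323486, plus strand) 20.9%, 24.6% and 3.99% of peaks were higher, and at Dnmt1 (chr9:20907209-20959888, minus strand) 30%, 23.6% and 11.7%. The start peak of Tet1 (chr10:62804570-62908996, minus strand) stayed within 4.91% to 6.57%. Among 649 protein-coding genes at 10 TPM or more in GMPs and under 1 TPM in matNeu, of which Dnmt3b and Tet1 are 2, 94.5% had a start in a matNeu H3K4me2 peak, so that a start peak in matNeu was common among such genes.

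**Figure D5:**
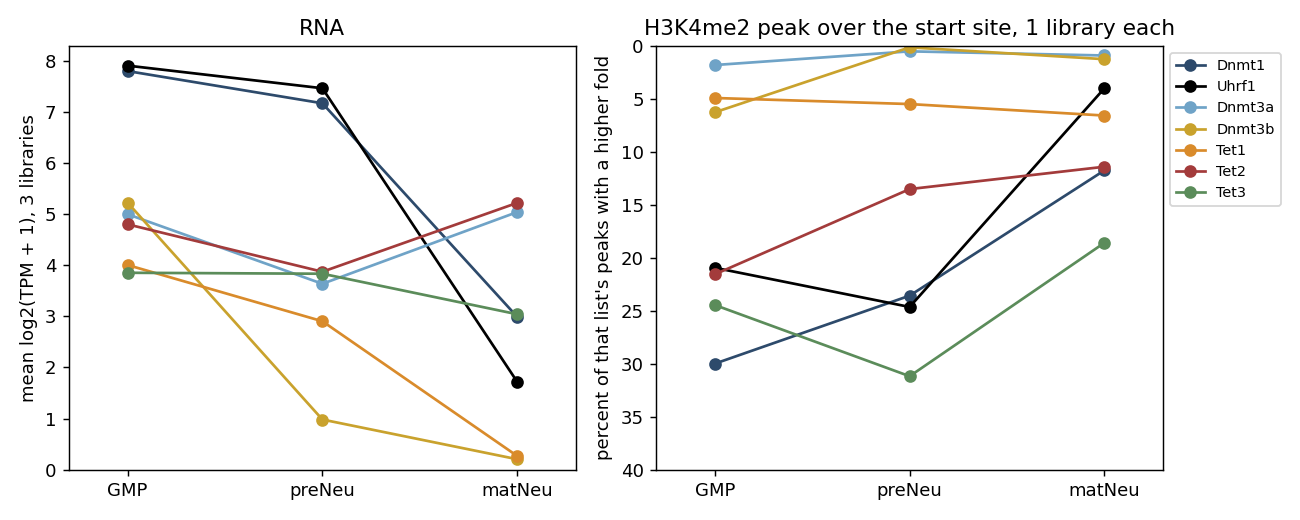
Mean log2(TPM + 1) of each gene in GMP, preNeu and matNeu (left, 3 libraries each) and the percent of all H3K4me2 peaks of that cell type with a higher fold than the peak over the gene's start (right, axis reversed so that stronger peaks are higher, 1 library each). On the right the start peaks of Dnmt3b and Uhrf1, whose RNA falls on the left, stand higher in the matNeu list than in the GMP list. So do those of Dnmt3a and Tet2, whose RNA does not fall, and those of Dnmt1 and Tet3, while that of Tet1 does not. The share of all genes with such a shift was not computed, so it may be a difference between the lists at large.

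At Dnmt3a (chr12:3806007-3914443, plus strand) the start peak was among the strongest of each list, with 1.80%, 0.510% and 0.903% of peaks higher in GMP, preNeu and matNeu. A separate H3K4me2 peak lay over the internal start in all 3, with 14.5%, 11.6% and 9.36% of peaks higher. At Tet2 21.6%, 13.5% and 11.4% of peaks were higher than the start peak, and at Tet3 (chr6:83362373-83459084, minus strand) 24.5%, 31.2% and 18.6%. A longer H3K4me2 peak lay upstream of the Tet3 RefSeq start, toward the annotated 5' end of the gene, with 20.0%, 20.3% and 16.4% of peaks higher. This region has no RefSeq start and was in none of the promoter windows. At Dnmt1 the peak covered the 2 inner starts in each list, and no peak covered the outermost start, the window of which held only 2 CG. The ATAC-seq lists labelled preNeu and matNeu held the same 16307 peaks, so that their cell type is not settled. That list had peaks within 0.256 kb of a start of Dnmt1, Dnmt3a, Dnmt3b, Tet2 and Tet3, none within 10 kb of Tet1, and at Uhrf1 only a peak beyond the gene's end, on the side of Kdm4b. At Tet3 it also held a peak of fold 5.06 in the upstream region, beside 3.78 over the RefSeq start.

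The promoters of these genes of CG methylation are themselves rich in CG. Of the 12 windows 11 held more CG dinucleotides than the median promoter window, which held 7, the outermost Dnmt1 start being the exception. Tet2 had the most, 57, and 0.11% of all promoter windows held more, while Dnmt3b held 30. The bases before these 2 starts are shown because the RNA of Tet2 was highest and that of Dnmt3b lowest of the 7 in matNeu, with H3K4me2 over both. They lie at chr3:133544391-133544640 on the minus strand for Tet2 and at chr2:153649199-153649448 on the plus strand for Dnmt3b, as in RefSeq on GRCm38.p6, and capitals mark CG.
Tet2: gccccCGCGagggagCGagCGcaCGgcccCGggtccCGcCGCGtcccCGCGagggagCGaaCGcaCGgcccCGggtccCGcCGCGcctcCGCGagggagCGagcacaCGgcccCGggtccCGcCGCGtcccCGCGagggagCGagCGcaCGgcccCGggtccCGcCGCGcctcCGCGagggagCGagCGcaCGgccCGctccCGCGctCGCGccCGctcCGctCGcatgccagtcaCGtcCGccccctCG
Dnmt3b: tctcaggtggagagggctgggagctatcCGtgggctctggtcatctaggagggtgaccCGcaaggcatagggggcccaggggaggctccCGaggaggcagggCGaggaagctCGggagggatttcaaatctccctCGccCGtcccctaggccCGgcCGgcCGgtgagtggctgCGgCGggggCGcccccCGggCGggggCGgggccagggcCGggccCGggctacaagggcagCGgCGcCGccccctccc
The 250 bases shown hold 51 CG at Tet2 and 21 at Dnmt3b. DNA methylation itself was not measured in this series.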

How the data were processed

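Expression values are TPM as the authors deposited them. The methods describe alignment and gene counts, and the submitters' processing notes list kallisto 0.44.0, BWA 0.7.17 and MACS2 2.1.0 with no role. How TPM was made from the reads, and read depth, are not given in the sources used here. Peak lists hold the fold enrichment, a linear ratio, and the −log10 q-value that the authors' peak caller gave. The GFI1 and H3K4me3 lists were not used because their peaks carry chromosome names that the mouse lacks. All other lists lay within the chromosome ends of GRCm38, the build named in the labels as mm10.

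Differences on the log2(TPM + 1) scale came from limma (version 3.58.1, R 4.3.3), in 1 fit of the 9 libraries with a variance trend. Genes had to reach 1 TPM in 3 or more of them. Calls were made at a Benjamini-Hochberg adjusted p of 0.05, after a test on simulated data. Fold changes on this scale understate those of low genes. Shares were tested by exact permutation with SciPy 1.17.1. Peaks were read with pandas 2.3.3 and sequences with samtools 1.23.1. Figures used matplotlib 3.10.9. Named were all 7 members, in each list the 2 called genes with the largest rise and fall in matNeu against GMPs, and the 3 genes most like each member by Pearson r. Pcna, Uhrf2, Usp7, Tdg, Ogt and the monocyte and B cell markers were named after their values were seen. Members and lists were chosen with earlier results of these data known. No column of the table was left unused (0 columns). The sum of the B cell markers is not reported here.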

Additional observations from a re-analysis of the deposited data

How the results depend on the processing

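Over 18 alternatives, 345 of 378 differences of the 7 genes kept their side of the threshold, 29 lost the call and 4 gained it. No called difference turned direction, and 5 that were not called did. Tet3 in preNeu against GMPs went from -0.02 to between 0.13 and 0.38 in 3 of them (median-of-ratios scaling, no 10 most abundant genes, no preNeu replicate 1). Dnmt3a in matNeu against GMPs went from 0.04 to -0.21 without matNeu replicate 1 and to -0.08 without GMP replicate 3. The falls of Dnmt1, Uhrf1 and Dnmt3b in matNeu against GMPs, that of Tet1 there, and the rises of Dnmt3a and Tet2 from preNeu to matNeu passed under every alternative run. In preNeu against GMPs the count of 6 genes called became 2 with median-of-ratios scaling, 2 without the 10 most abundant genes of each library and 3 with a minimum log2 change of 1. Leaving out single libraries gave 4 to 6 genes called there, 5 to 6 in matNeu against GMPs and 5 to 7 in matNeu against preNeu. It lost Uhrf1 in preNeu in 5 of 9 cases and Tet2 in 2, and moved the Tet2 value there from -1.14 to -0.50, the latter without preNeu replicate 1. Tet3 in matNeu against preNeu lost its call without preNeu replicate 3 (limma, adjusted p = 0.053) and without matNeu replicate 2 (limma, adjusted p = 0.052). All shares kept their calls. The cause of these losses was not tested.

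No clear pairing by replicate number was seen: deviations of same-numbered libraries correlated from -0.039 to 0.12, above 0.1 in 1 of 9 pairs. With 3 libraries per cell type, these correlations cannot exclude pairing. With a replicate block 6, 5 and 6 genes were called in the 3 comparisons, the same counts as without it.

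For peaks, a −log10 q of at least 5 left 7, 18 and 16 H3K4me2 peaks in GMP, preNeu and matNeu and 16.8 kb covered in GMPs. It left a start peak at 3 of the 7 genes in GMPs, with no share over all genes computed at this cut. A window of 50 kb gave 37 CHD4 peaks in WT GMPs, 64, 66 and 63 H3K4me2 peaks and 95.5, 159.4 and 113.8 kb covered. Read depth is unknown for all files, and each peak list is 1 library.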

Other observations

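Genes beside the members shared peaks with them. The H3K4me2 peak in the window of Uhrf1 with the highest fold in preNeu lay beyond the gene's end, on the side of Kdm4b, a histone demethylase gene, which stood at 18.8 ± 3.46 TPM in GMPs, 10.7 ± 5.38 TPM in preNeu and 18.6 ± 1.05 TPM in matNeu (SD, n = 3). The peak at the upstream end of the Dnmt1 window lay in S1pr2, a sphingosine phosphate receptor gene, which stood at 12.6 ± 0.842 TPM, 13.9 ± 3.95 TPM and 3.44 ± 0.708 TPM. The peak at its other end lay in Eif3g, a translation initiation gene, which stood at 344 ± 56.1 TPM, 94.6 ± 12.7 TPM and 27.5 ± 2.25 TPM.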
